A study of Mus musculus with 2 samples.

Results

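The 10 microRNAs (miRNAs) described here are used as marks of connective tissue and vessel wall: mmu-miR-143-3p, mmu-miR-145a-5p, mmu-miR-199a-3p, mmu-miR-199a-5p, mmu-miR-214-3p, mmu-miR-10a-5p, mmu-miR-10b-5p, mmu-miR-99a-5p, mmu-miR-100-5p and mmu-miR-125b-5p, written below without the mouse prefix. They were chosen by name, and all 10 were found among the 1881 mouse miRNAs on the array, with 2 probes each. The samples were whole femurs with their marrow from female mice on a C57BL/6 background, 9 months of age. One group had undergone ovariectomy (OVX), in which the ovaries and with them the main source of estrogen are removed, and the other sham surgery. Each group was 1 RNA pool from 4 mice on 1 single-colour Agilent miRNA array, both on a single slide. With 1 array per group no test is possible: "higher" and "lower" describe these 2 arrays, errors between spots hold no variation between mice, and precision is limited by how few arrays there are.

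A miRNA guides a silencing complex to messenger RNAs, mainly through its seed, bases 2 to 8 from its 5′ end. miR-143 and miR-145a come from a shared transcript and are best known from smooth muscle of the vessel wall. miR-199a and miR-214 are made from the antisense transcript Dnm3os, and miR-199a also from another locus. Both are known from mesenchyme and fibroblasts. The miR-10 genes lie within the Hox clusters, and miR-99a, miR-100 and miR-125b come from clusters that also hold a let-7 gene. miR-125b is also known from blood stem cells, and miR-10a from blood progenitors, so neither marks stroma alone in marrow. In pooled whole bone, fewer cells of a type and less of a miRNA per cell cannot be told apart.

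Mature sequences are shown to tell the miRNAs that share a seed from those that do not. They were taken from RefSeq (build GRCm38.p6), where 8 of the 10 names matched, and capitals mark the seed.
miR-199a-3p: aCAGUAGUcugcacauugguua
miR-199a-5p: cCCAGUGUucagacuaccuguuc
miR-214-3p: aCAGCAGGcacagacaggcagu
miR-10a-5p: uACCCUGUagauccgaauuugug
miR-10b-5p: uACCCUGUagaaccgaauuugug
miR-99a-5p: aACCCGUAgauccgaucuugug
miR-100-5p: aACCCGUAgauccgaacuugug
miR-125b-5p: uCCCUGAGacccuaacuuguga
These 8 hold 6 seeds. miR-10a-5p and miR-10b-5p share 1 seed and differ by a single base over their length of 23 (U12A, counted from the 5′ end). miR-99a-5p and miR-100-5p share another and also differ by a single base (U16A). The 2 arms of the miR-199a hairpin have different seeds, as have miR-214-3p and miR-125b-5p.

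The probes of these near-identical pairs are shown because the pairs did not behave alike on the arrays. Each is the longer probe of its miRNA, and the capital is the base opposite the difference. Whether a probe also binds the other miRNA of its pair was not tested.
miR-10a-5p probe: cacaaattcggAtctacaggg
miR-10b-5p probe: cacaaattcggTtctacaggg
miR-99a-5p probe: cacaagAtcggatctacgg
miR-100-5p probe: cacaagTtcggatctacgg
The miR-10 probes pair with bases 3 to 23 of their miRNA, and the other pair of probes with bases 4 to 22. In the scanner files, which use mouse build mm9, the longer probes match chr11:96178503-96178522 (miR-10a-5p), chr2:74564134-74564153 (miR-10b-5p), chr16:77599189-77599206 (miR-99a-5p) and chr9:41339524-41339541 (miR-100-5p), spans that are 1 base shorter than the probes. RefSeq places Mir10a inside Hoxb3, between Hoxb5 and Hoxb4, and Mir10b inside Hoxd3 and Hoxd4. It places Mir100 and Mir125b-1 inside the non-coding gene Mir100hg, and Mir99a and Mir125b-2 both between Usp25 and Cxadr. Mir199a-2 and Mir214 lie inside Dnm3 and Dnm3os, and Mir199a-1 inside Dnm2.

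Most of the 10 miRNAs lay near background. A miRNA was called present when over 50% of the spots of at least 1 probe were well above background by the scanner software. By that rule 4 of the 10 were present on the OVX array, where 15.9% of all 1881 miRNAs were, and 2 of the 10 on the sham array, where 10.7% were. miR-10a-5p and miR-125b-5p were present on both arrays, miR-199a-3p and miR-99a-5p on the OVX array only, and the other 6 on neither. By contrast, all 8 of a list of blood-cell miRNAs, among them miR-451a of red cells and miR-223-3p of granulocytes, were present on both arrays. Of all 1881 miRNAs 10.5% were, and of 12 other mesenchymal or osteoblast miRNAs 7 were. These lists were chosen with earlier results of these data known.

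Looser rules gave more calls in OVX, and in sham only the looser of 2 did. A probe above the mean plus 3 SD of the negative control spots (9.95 in OVX and 10.4 in sham, as processed signals, the background-subtracted brightness of a spot) was found for 5 of the 10 in OVX, against 22.8% of all miRNAs, and for 2 of the 10 in sham, against 16.5%. The fifth in OVX was miR-199a-5p. The scanner software also marks a spot as positive and significant against background. Over 50% of the spots of a probe carried that mark for 8 of the 10 in OVX (34.2% of all miRNAs) and for 6 of the 10 in sham (28.4%). Of single negative control spots, 18.2% in OVX and 27.1% in sham carried the mark. None of the 7 negative control probes reached 50% on either array, and the highest had 37.2% in OVX and 39.8% in sham. Those 7 share 978 spots in OVX and 982 in sham, while each probe of the 10 miRNAs has at most 15. They therefore cannot show how often a blank probe with so few spots would pass. miR-10b-5p passed the rule with 9 of 15 spots in OVX and 10 of 15 in sham. miR-143-3p and miR-145a-5p were the 2 of the 10 that failed this rule on both arrays.

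**Figure D1:**
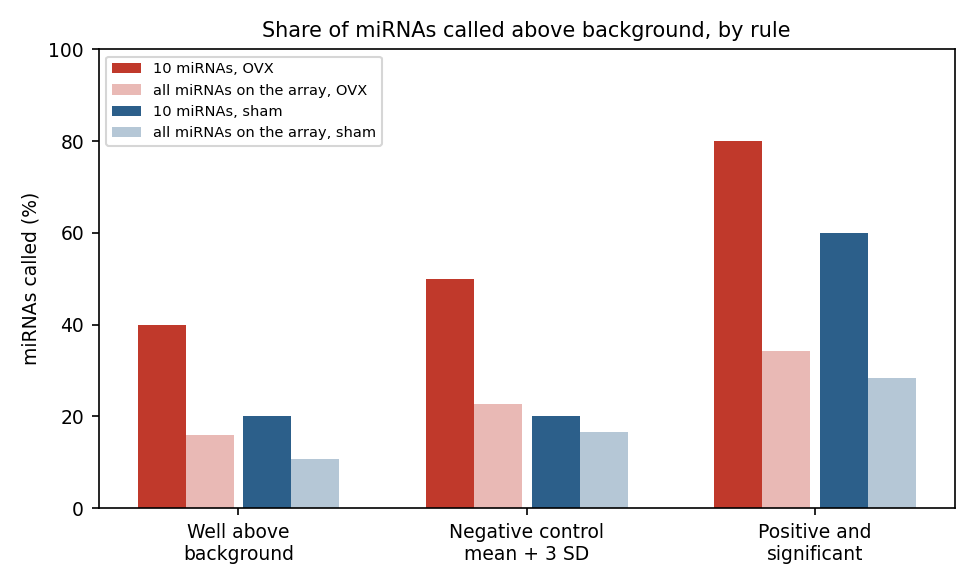
Share of miRNAs called above background on the OVX and sham arrays under 3 rules; dark bars are the 10 stromal and vessel-wall miRNAs and pale bars all 1881 miRNAs on the array. The 10 stand at 40, 50 and 80% in OVX and at 20, 20 and 60% in sham, in the order of the rules from left to right.

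miR-143-3p, the smooth-muscle miRNA, averaged below every one of the 7 negative control probes on both arrays. Its probes averaged -1.99 ± 1.84 (SD, 13 spots) and -0.37 ± 3.67 (15 spots) in OVX, against -1.82 ± 2.58 and -1.98 ± 3.08 in sham (15 spots each). miR-145a-5p, its partner from the shared transcript, gave 1.52 ± 3.40 and 0.49 ± 2.49 in OVX, against -0.34 ± 2.56 and -0.45 ± 2.39 in sham (SD, 15 spots each). For comparison, negative control spots averaged 1.36 ± 2.86 (978 spots) in OVX and 1.93 ± 2.81 (982 spots) in sham. The means of the 7 negative control probes ran from 0.816 to 3.29 in OVX and from 1.48 to 3.14 in sham. Of the 20 probes of the 10 miRNAs, 5 lay below this range in OVX and 12 in sham. No spot of either miRNA was well above background on either array. Neither miRNA was therefore detectable on these arrays, which sets no limit on its amount, since brightness depends on the probe.

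miR-199a-3p was the brighter arm of the miR-199a hairpin and was present in OVX. Its longer probe read 22.6 ± 2.35 in OVX, against 8.12 ± 3.10 in sham (SD, 15 spots each), with all OVX spots from 18.9 to 26.6 and all sham spots from 0.643 to 13.3. The spots of the 2 arrays did not overlap. In OVX 11 of 15 spots were well above background, and in sham 0 of 15 were. In sham 4 of 15 spots were above the negative control limit and 14 of 15 were positive and significant. These signals are not scaled between the arrays, and the OVX array was brighter as a whole. Of the 197 miRNAs present on both arrays, 98% were higher in OVX before scaling. How many of all probes had spots that did not overlap was not counted. A lack of overlap, here and for the miRNAs below, therefore describes only the probe named and not a difference between groups. The shorter probe had means of 12.2 in OVX and 3.51 in sham, and no spot of it was well above background. The probes of miR-199a-3p are also listed for miR-199b-3p, whose RefSeq sequence has 0 differences from it, and their mm9 match, chr2:32174047-32174065, is on the chromosome of Mir199b, so the signal belongs to 3 genes together.

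miR-199a-5p, the other arm, was dimmer. Its longer probe averaged 10.1 ± 3.57 in OVX and 5.68 ± 2.64 in sham (SD, 15 spots each), with 8 of 15 spots in OVX and 1 of 15 in sham above the negative control limit. Its shorter probe, 1 base less, read 1.37 in OVX and -0.27 in sham. miR-214-3p, from the same antisense transcript as Mir199a-2, had a longer probe at 5.71 ± 3.41 in OVX and 0.0191 ± 2.48 in sham. That probe has only 13 bases, and its spots overlapped between the arrays, from -0.38 to 13.2 in OVX and from -3.50 to 4.51 in sham.

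miR-10a-5p was present on both arrays with both probes. The longer probe read 64.3 ± 5.0 in OVX (SD, 15 spots) and 42.3 ± 2.72 in sham (14 spots), with no overlap between spots. The shorter read 33.2 ± 6.11 in OVX and 24.0 ± 2.89 in sham (15 spots each), and there a few spots overlapped. Before scaling both probes were thus brighter in OVX, by 1.52-fold and 1.38-fold. The OVX array as a whole was brighter, however, by 2.02-fold at the 75th percentile of the 350 probes that stood well above background on both.

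After each array was scaled to that percentile, miR-10a-5p had a level of -2.50 in OVX and -2.02 in sham on the log2 scale. The difference was -0.48 (spot SE 0.05), or 0.719-fold. Its 2 probes agreed in direction, at -0.54 and -0.41. The direction rests on the scaling, since miR-10a-5p was above 0 without scaling (0.54) and when the arrays were scaled to 27 bright control probes (0.18).

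miR-10b-5p, with its single-base difference, was not well above background. Its longer probe read 4.90 ± 3.59 in OVX and 5.65 ± 2.87 in sham (SD, 15 spots each), and its shorter -0.33 in OVX and -0.39 in sham. The longer probe of miR-10b-5p was the only 1 among the longer probes of the 10 with a lower unscaled signal in OVX, with a difference of -0.756 (OVX minus sham), smaller than the SD between its spots. The miR-10a-5p probe differs from it at 1 base only and was well above background on both arrays.

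**Figure D2:**
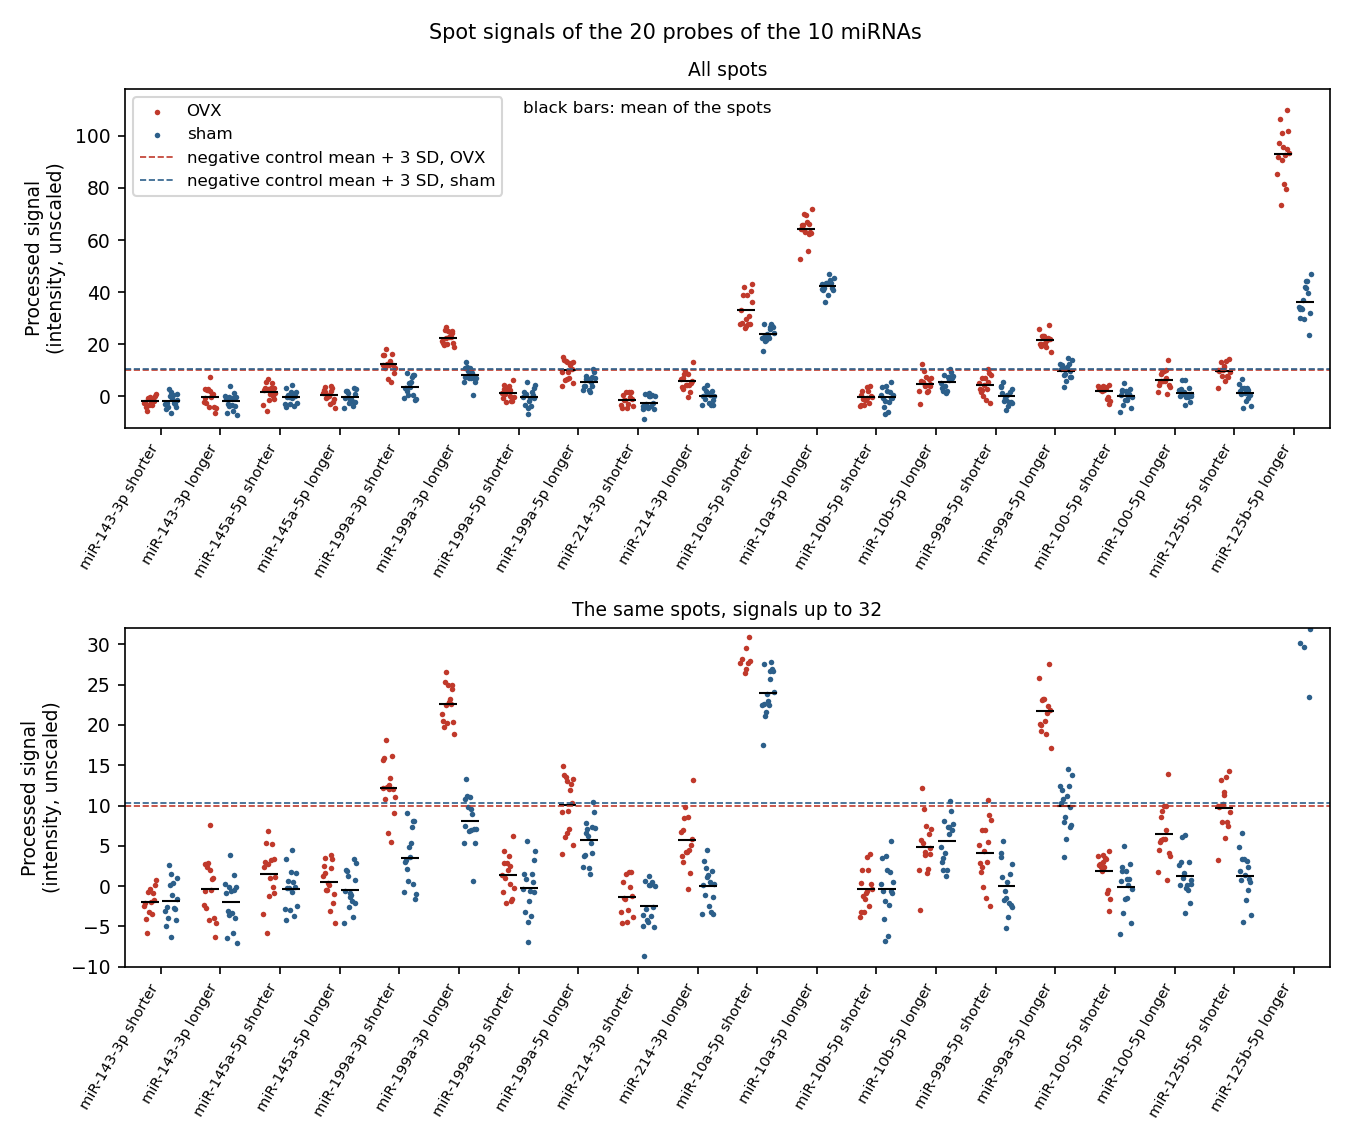
Processed signal (unscaled intensity) of each spot of the 20 probes, with OVX spots left of sham spots, black bars for the mean of the spots and dashed lines for the mean plus 3 SD of each array's negative control spots; the lower panel repeats the upper one for signals up to 32. The longer probe of miR-125b-5p (93.1 in OVX and 36.4 in sham) and both miR-10a-5p probes stand clear of the lines on both arrays, and the longer probes of miR-199a-3p and miR-99a-5p in OVX only.

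miR-99a-5p was present in OVX only, and narrowly. Its longer probe averaged 21.8 ± 2.78 in OVX (SD, 14 spots), with 9 of 14 spots well above background, and 9.90 ± 3.05 in sham (15 spots), with 0 of 15. In sham, however, 8 of 15 spots were above the negative control limit and 14 of 15 were positive and significant. The unscaled means had a ratio of 2.20, and the OVX array was 2.02-fold brighter at its 75th percentile. Before scaling the spots did not overlap, from 17.2 to 27.6 in OVX and from 3.62 to 14.6 in sham. miR-100-5p, which differs from it by a single base, read 6.43 ± 3.44 in OVX and 1.26 ± 2.64 in sham with its longer probe (SD, 15 spots each). Spots of miR-100-5p overlapped between the arrays, and none was well above background.

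For miR-199a-3p and miR-99a-5p a scaled fold change could not be measured. The lowest probe signal counted as present was 19.3 on the OVX array and 17.8 on the sham array. Against the sham value, miR-199a-3p was at least 1.27-fold and miR-99a-5p at least 1.22-fold higher in OVX before scaling. After scaling both bounds fell under 1, so no fold is given. In all, 102 miRNAs, or 5.42% of those on the array, were present in OVX and not in sham.

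miR-125b-5p had the brightest probe of the 10 on the OVX array. Its longer probe read 93.1 ± 10.02 in OVX and 36.4 ± 6.55 in sham (SD, 15 spots each), with spots from 73.6 to 109.7 in OVX and from 23.5 to 46.8 in sham. These did not overlap before scaling. The unscaled signal was 2.56-fold higher in OVX, an array that was 2.02-fold brighter at its 75th percentile. The shorter probe, which lacks 1 base, read only 9.71 in OVX and 1.25 in sham, and no spot of it was well above background. The miR-125b-5p level thus rests on 1 probe of 17 bases. RefSeq lists 2 genes for this sequence, and the scanner files list no position for the probe.

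After scaling, miR-125b-5p had a level of -1.49 in OVX and -1.83 in sham. The difference was 0.34 (spot SE 0.08), or 1.27-fold, within 1.5-fold. Leaving the arrays unscaled gave 1.35 and scaling to the control probes 0.998, but these settings add 1.01 and 0.66 to every difference. A difference of 0.34 could therefore not turn negative under them. With normexp background correction, which adds 50 to each signal, the difference was -0.09. Setting dim signals to a floor put it at -0.28, and the scanner's gene-level signal at -3.70.

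Of the 2 measured differences, 1 was above 0 and 1 below, with a median of -0.07. Over the 197 miRNAs present on both arrays 47.2% were above 0 as scaled and 98% without scaling, and the median was -0.04 as scaled. Among the 197, 38 had a lower difference than miR-10a-5p and 42 a higher one than miR-125b-5p, so both lay outside the interquartile range (-0.36 to 0.28). Neither passed 1.5-fold, which 11.2% of the 197 did upwards and 14.7% downwards, and 2.03% passed 2-fold in each direction. The gap between them, miR-125b-5p minus miR-10a-5p, was 0.82 and is untouched by any scaling that adds a constant to each array. It was 0.75 in the deposited value table and 0.42 with normexp. With dim signals set to a floor it was 0.20, where the shorter miR-125b-5p probe counts at the floor on both arrays. It turned to -3.59 with the scanner's gene-level signal.

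**Figure D3:**
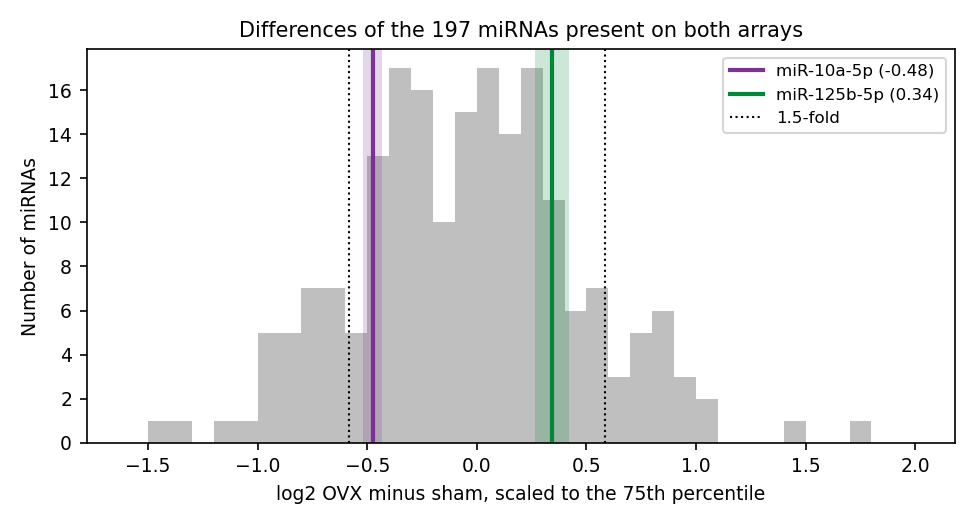
Scaled log2 differences, OVX minus sham, of the 197 miRNAs present on both arrays (grey bars, number of miRNAs), with lines for miR-10a-5p and miR-125b-5p, shading for their spot SE and dotted lines at 1.5-fold. miR-10a-5p at -0.48 and miR-125b-5p at 0.34 both lie inside the dotted lines.

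Probes of the 10 were mostly brighter in OVX before scaling, both the 5 well above background there and the dim ones. Of the 20 probes of the 10 miRNAs, 18 had a higher unscaled mean in OVX, against 63.9% of all 4415 probes on the array. The exceptions were the shorter probe of miR-143-3p and the longer probe of miR-10b-5p. Of the 197 miRNAs present on both arrays, 98% were higher in OVX without scaling. Some differences of dim probes were small, such as 0.06 for the shorter probe of miR-10b-5p, with an SD between OVX spots of 2.42. Negative control spots were slightly lower in OVX (1.36, against 1.93 in sham), while the array's 75th percentile was 261 in OVX and 129 in sham. Probes of a miRNA are not independent, and the part that overall array brightness has in this count was not tested.

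The longer of the 2 probes was the brighter for 9 of the 10 miRNAs in OVX and for 8 of the 10 in sham. Across 174 miRNAs with 2 probes of unequal length that were present on both arrays, the longer was the brighter in 89.1% in OVX and 87.4% in sham. Probes of the 10 have 12 to 21 bases.

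The opposite arms of the same hairpins, usually the less abundant product, were near background as well. None of the 9 on the array was present in OVX or in sham. The brightest was miR-145a-3p in OVX, at 8.89 ± 4.27, against 4.33 ± 4.95 in sham, and miR-10a-3p read 7.68 ± 3.47 in OVX and 6.60 ± 3.80 in sham (SD between spots).

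Of 6 miRNAs from paralogs only miR-125a-3p, the arm opposite miR-125a-5p, was present. It was so on both arrays, with a level of -2.63 in OVX and -2.59 in sham and a difference of -0.04. That level rests on 1 of 4 probes with 7 spots per array, at 42.0 in OVX and 21.4 in sham. The sham signal is near 17.8, the lowest counted as present there. miR-125a-5p, which resembles miR-125b-5p, read 7.37 ± 3.07 in OVX and 0.893 ± 3.36 in sham and was not well above background. miR-99b-5p and miR-199b-5p were not present on either array.

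Of 3 let-7 miRNAs from the miR-99, let-7 and miR-125 clusters, 2 were present. let-7c-5p, from the cluster of miR-99a, and let-7a-5p, from that of miR-100, were present on both arrays and nearly equal after scaling, with differences of -0.03 (0.32 in OVX and 0.35 in sham) and 0.06 (1.37 in OVX and 1.31 in sham). let-7e-5p, from the cluster of miR-99b and miR-125a, read 14.3 ± 1.37 in OVX and 4.90 ± 3.41 in sham and was not well above background. let-7a-5p and let-7c-5p are each also made from a gene outside these clusters, so their signals are not those of the clusters alone.

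Other cell types were represented to different extents. The 8 blood-cell miRNAs had a median difference of 0.74, with 6 above 0 and 2 below. miR-126a-3p, made in endothelium, was present on both arrays with a difference of 0.77, and its other arm, miR-126a-5p, on neither. The skeletal-muscle miRNAs miR-133a-3p and miR-133b-3p were present in sham only, while miR-1a-3p and miR-206-3p were present on neither array. Brightest-probe signals were 16.3 in OVX and 26.8 in sham for miR-133b-3p, and 10.8 in OVX and 19.5 in sham for miR-133a-3p. The lowest signal counted as present in sham was 17.8. Of all 1881 miRNAs, 202 were present in sham and 197 on both arrays. Both arms of the cartilage miRNA miR-140 were present on both arrays, with differences of -0.49 (miR-140-3p) and 0.17 (miR-140-5p), and miR-455 was not present. Of 12 other mesenchymal or osteoblast miRNAs, miR-31-5p, miR-34c-5p, miR-218-5p, miR-335-5p and miR-196a-5p were present on neither array. The other 7 were present on both arrays, with a median difference of 0.39, 5 above 0 and 2 below. Among these 7 were miR-29a-3p (0.39), miR-21a-5p (0.90) and miR-22-3p (-0.25). Other scalings add a constant to each of these differences: 1.01 with no scaling, which puts all of them above 0, and 0.66 with control-probe scaling, which leaves only miR-486a-5p of the blood-cell list below. With median scaling the constant is -0.18, which puts let-7a-5p and miR-140-5p below 0. The part that a different share of blood, muscle or vessel cells in the 2 pools has in the miR-10a-5p and miR-125b-5p values was not tested.

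**Figure D4:**
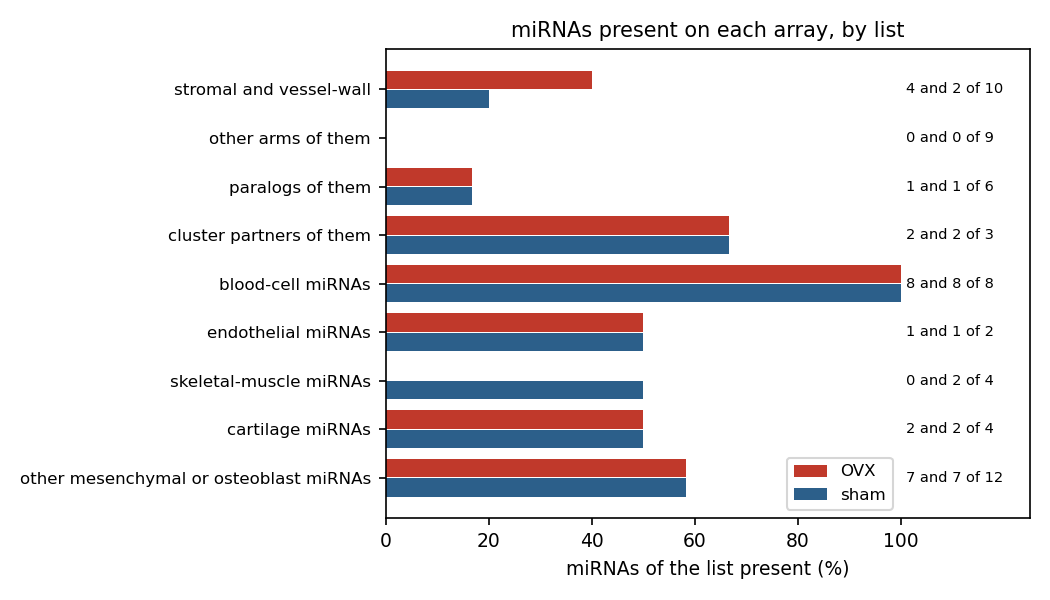
Share of the miRNAs of each list that were present on the OVX array (upper bar of each pair) and the sham array (lower bar), with the counts beside them. All 8 blood-cell miRNAs were present on both arrays, against 4 of the 10 stromal and vessel-wall miRNAs in OVX and 2 of the 10 in sham.

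The scanner's gene-level signal did not always follow the probes. For miR-125b-5p it was 38.8 in OVX and 243.2 in sham, while the sums of its probes' total signals were 28.4 in OVX and 7.98 in sham. In OVX the gene-level signal of miR-199a-3p was 23.8, against a sum of 9.61, and that of miR-99a-5p was 6.01, against 7.16. For miR-10a-5p the gene-level signal equalled the sum of its probes' total signals on each array to the digits given (26.9 in OVX and 14.1 in sham). In the authors' deposited value table, whose names were moved by 1 row because only then did its values follow the scanner files, miR-10a-5p stood at 4.07 in OVX and 4.54 in sham, and miR-125b-5p at 3.997 in OVX and 3.716 in sham. miR-199a-3p and miR-99a-5p were above the table's floor in OVX only, and the other 6 were at the floor on both arrays.

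**Figure D5:**
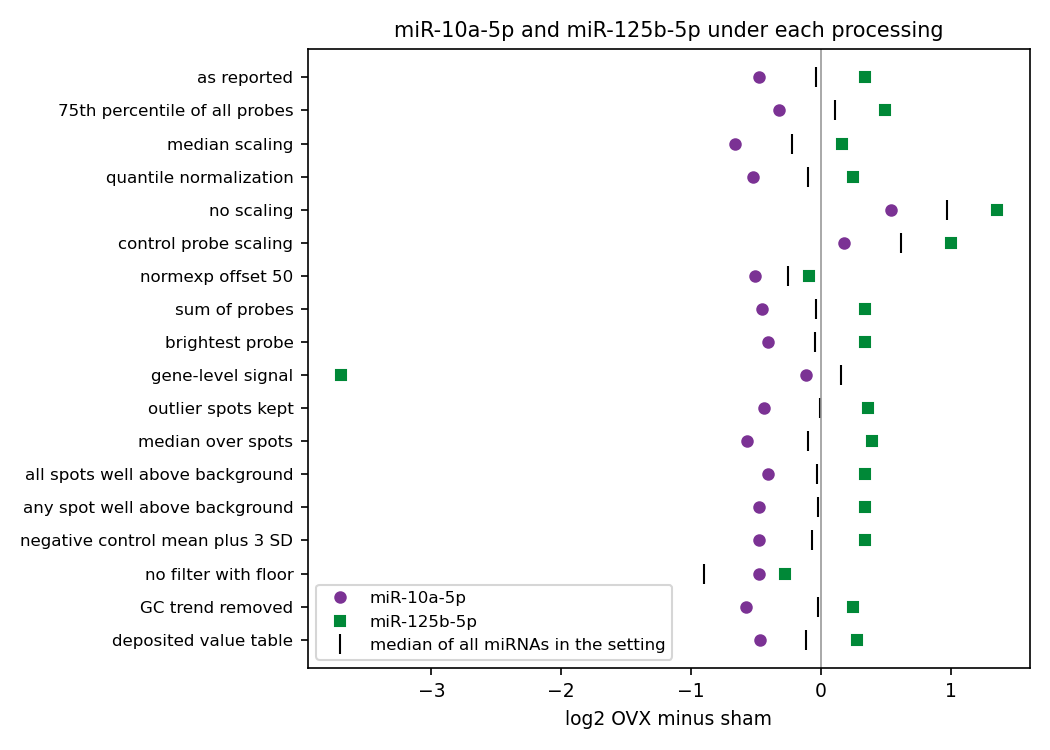
log2 difference, OVX minus sham, of miR-10a-5p (circles) and miR-125b-5p (squares) under each processing, with the median of all miRNAs measured in that setting (ticks). miR-125b-5p lies above miR-10a-5p in each setting shown except the gene-level signal, where it is at -3.70.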

How the data were processed

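RNA pools from 4 ovariectomised and 4 sham-operated mice were each hybridised to 1 array. The deposited scanner files hold intensities per spot, extracted with Agilent software, Feature Extraction 10.7.1.1 per the file headers and 11.0.1.1 per the submitters' processing notes; the processed intensity is background-subtracted and not normalized between arrays, per the file headers. The deposited value table holds the authors' log2 values, whose normalization method is not given in the sources used here. Under its printed names the Spearman correlation with the gene-level signal across 1881 miRNAs was 0.04 (OVX) and 0.02 (sham), and with names moved by 1 row 0.99 (OVX) and 0.996 (sham); it served only as an alternative.

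Each array had 56430 miRNA spots. Outlier spots (1635 in OVX and 1554 in sham) and control spots were left out, and no miRNA spot was saturated. The mean signal of a probe was log2-transformed, and from it was taken the 75th percentile of the 350 probes that both arrays had well above background. Levels of a miRNA average those of its probes that are among them. The spot SE is propagated from the spread between spots. A bound sets the bright array's level against the lowest level counted as present on the other. All 10 miRNAs are named, and of each of 8 other lists at most 6 of those present, by level. The members and lists were chosen with earlier results of these data known. Python 3.11.15, pandas 2.3.3 and limma 3.58.1 (for normexp) were used, and the level script was tested on simulated data. RefSeq sequences are of build GRCm38.p6, whose coordinates served only to place the miRNA genes inside or between other genes.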

Additional observations from a re-analysis of the deposited data

How the results depend on the processing

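No paired analysis was possible because each group has 1 array, and for the same reason no replicate could be left out. Of 17 alternative settings, 12 left miR-10a-5p within 0.11 (the SD between probes of a miRNA, log2) of its reported -0.48, and 10 did so for miR-125b-5p at 0.34. Some of these could not move it: 5 gave exactly the reported value for miR-125b-5p, which has 1 measured probe, and 3 for miR-10a-5p. miR-10a-5p was at -0.32 with the 75th percentile of all probes, -0.66 with median scaling, 0.54 with no scaling, 0.18 with control-probe scaling and -0.11 with the gene-level signal. miR-125b-5p was at 0.49, 0.16, 1.35, 0.998 and -3.70 in the same order, -0.091 with normexp and -0.28 with no filter and a floor. The median over measured members (-0.07) was 0.085, -0.25, 0.95, 0.59 and -1.91 in that order of settings, -0.30 with normexp and -0.90 with the floor. That last value, also the median of all miRNAs there, is the gap between the floors of the arrays, and 8 of the 10 then counted as 1.5-fold lower: 6 at the floor on both arrays, and miR-199a-3p (-0.79) and miR-99a-5p (-0.81) at it in sham. Otherwise 1 member passed 1.5-fold downwards with median scaling and 1 with the gene-level signal, which also passed 2-fold. Upwards, 1 passed 1.5-fold with no scaling, which also passed 2-fold, and 1 with control-probe scaling. Scaling to control probes moved the median of all miRNAs to 0.61 and no scaling to 0.97, so these shifts are common to all miRNAs. Where all spots had to be well above background, 2 of the 10 were present in OVX. By positive and significant spots, a rule added after seeing the data, 8 were present in OVX and 6 in sham. Signals near background limit the other 8 miRNAs. The cause of the gene-level departures was not tested.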
